A study of Danio rerio with 2 samples.

Results

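Arterial-type endothelial cells were examined in single-cell RNA-seq counts of GFP-positive cells. These had been sorted at the 20-somite stage from zebrafish that carry etv2ci32Gt and UAS:GFP. The series holds 2 libraries, 1 from homozygous and 1 from heterozygous embryos, each from a pool of embryos. In this gene trap a gal4 sequence sits within the coding sequence of etv2, the ETS factor that starts vascular development, and drives UAS:GFP. Embryos of both genotypes therefore carry the trap and the reporter. Heterozygous embryos keep 1 intact etv2 allele and homozygous embryos none, and neither of these 2 libraries came from wild-type embryos. A count is the number of different molecular identifiers (UMIs) of a gene in a cell. The counts sum to 7244035 UMIs in the homozygous and 19256969 UMIs in the heterozygous library, and no barcode was shared by the kept cells of both.

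The members were chosen by their own counts, so the genes of the rule are no findings. A barcode was kept with at least 2500 UMIs, over 200 but no more than 3500 detected genes, and mitochondrial counts of 5% or less. A kept cell was taken as endothelial if at least 3 of the 7 genes cdh5, cldn5b, ecscr, crip2, erg, kdrl and she were detected and tal1 was below 2000 counts per 1000000 (CPM). Cells with at least 2 of the endocardial genes cdh6, gata5 and fn1a were left out. A member had at least 3 UMIs of the arterial genes cldn5b, dll4, efnb2a and hey2 in sum, and more than 2 times as many as of the venous genes flt4, dab2 and mrc1a. This gave 142 arterial-type cells among the 2081 kept cells of the series, 1 of 473 homozygous and 141 of 1608 heterozygous ones. The share was 0.211% (95% interval, 0.00535 to 1.17) in the homozygous and 8.77% (7.43 to 10.3) in the heterozygous library. Intervals on shares are exact binomial ones and those on counts and their ratios exact as well, and all of them hold only the error of counting. There was no replicate of either genotype, so no difference was tested and no p-value is given.

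In the zebrafish trunk, Hedgehog and Vegf signals act on endothelial progenitors at the midline and turn on Notch signaling, which favors the arterial over the venous fate. Artery cells come to express the Notch ligands dll4 and dlc, the Notch target hey2 and the ligand ephrin B2a. Genes such as flt4, which codes for a Vegf receptor of veins and lymphatic vessels, are first expressed more widely and become restricted later. At this stage the first artery is being assembled and blood does not yet flow.

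The 4 genes that chose the members differed in how often they were seen, and their values are a description of the choice. cldn5b, which codes for a claudin of tight junctions, had 865 counts over the 141 members, with 0 to 34 UMIs per cell and a median of 5, against 107 counts over the 149 remaining endothelial cells, with 0 to 9 UMIs and a median of 0. hey2, a transcriptional repressor downstream of Notch, had 634 counts in members, with 0 to 17 UMIs and a median of 4, against 131 counts in remaining cells, with 0 to 12 UMIs and a median of 1. efnb2a had 193 counts in members and 39 in remaining cells, and dll4 had 76 counts in members and 6 in remaining cells. A UMI of cldn5b was found in 93.6% of members, of hey2 also in 93.6%, of efnb2a in 56.7% and of dll4 in 31.9%. Of the members, 99 passed the limit of 3 UMIs through cldn5b alone, and 116 did so through dll4, efnb2a and hey2 without it.

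All 4 genes were detected in 34 members, 3 genes in 49, 2 genes in 48 and 1 gene in 10. The commonest sets were cldn5b with hey2 in 41 members and cldn5b, efnb2a and hey2 in 40. At the edge of the rule, 14 members held exactly 3 arterial UMIs, while 45 of the remaining cells held exactly 2. The members just inside were shallow, with a median of 3805 UMIs in all, against 7742 UMIs in the cells just outside. Depth over all members was similar to that of the comparison group, with a median of 8738 UMIs in members and 9294 in the remaining cells.

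The endothelial part of the label was checked against 2 endothelial genes that the rule did not use, which do not check its arterial part. After thinning to 4738 UMIs per cell, with shallower cells left out, egfl7, which codes for a secreted protein of endothelium, was seen in 89.5% of members (82.3 to 94.4), in 57.4% of the remaining endothelial cells (47.8 to 66.6) and in 5.26% of cells with a neural gene set (1.099 to 14.6). The ETS gene fli1a was seen in 90.4% of members, 66.1% of remaining cells and 0% of neural-type cells. In the remaining cells of the stricter comparison described below, each of the 2 genes was seen in 80.4% (67.6 to 89.8). Endocardial cells held egfl7 in 74.6% and fli1a in 87.3%. The genes of the rule were conditioned on and check nothing, so their levels follow as a description. CPM here is the summed count of a group of cells per 1000000 UMIs. cdh5, which codes for VE-cadherin of endothelial junctions, stood at 319 CPM (289 to 352) in members and 159 CPM (140 to 180) in remaining cells. The Vegf receptor gene kdrl stood at 206 CPM (182 to 232) in members and 48.3 CPM (38.2 to 60.2) in remaining cells. The endocardial gene gata5 had 11 counts in members and 12 in remaining cells. tal1, a factor of early blood and endothelial progenitors, stood at 543 CPM (504 to 586) in members and 467 CPM (434 to 501) in remaining cells.

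The remaining endothelial cells were not a uniform group, and this bears on every ratio below. A list of 14 erythroid genes, 13 of them with a UMI in members and 14 in remaining cells, summed to 514 CPM in members and 7266 CPM in the remaining cells. Per cell the list had a median of 462 CPM and a maximum of 2982 CPM in members, against 649 CPM and 99651 CPM in remaining cells. The macrophage list summed to 64.7 CPM in members and 314 CPM in remaining cells. Cardiomyocyte, skeletal muscle and epidermal lists, the last without the genes icn and s100a10b, were low in both groups. They stood at 6.31, 8.68 and 22.9 CPM in members and 10.5, 12.995 and 30.3 CPM in remaining cells. The 2 epidermal markers left out of that list were higher in members. icn was at 106 CPM in members and 6.81 CPM in remaining cells, and s100a10b at 59.2 CPM in members and 6.81 CPM in remaining cells. A neural list was also higher in members, at 115 CPM against 37.7 CPM in remaining cells. A stricter comparison was therefore added after these values were seen. It kept cells with at least 4 of the 6 endothelial genes other than cldn5b and under 2000 CPM of the erythroid list, which left 119 arterial-type and 71 remaining cells. There the erythroid list summed to 451 CPM in arterial-type and 525 CPM in remaining cells. The stricter cells still differed in other lists, with the macrophage list at 55.3 CPM in arterial-type and 106 CPM in remaining cells and a list of tailbud genes at 98.2 CPM in arterial-type and 269 CPM in remaining cells. Cells with more tal1 were not in either comparison. Where no limit was set on tal1, 434 cells were endothelial and 197 of them arterial-type, and of 90 list or top genes at 2-fold or more 46 remained so. The ratio without the tal1 limit is given beside several of these genes.

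Members also held venous transcripts. At least 1 UMI of flt4, dab2 or mrc1a was present in 63.1% of members (54.6 to 71.1) and in 52.3% of the remaining cells (44.0 to 60.6). The 3 genes summed to 152 CPM in members and 129 CPM in remaining cells. In the stricter comparison they summed to 164 CPM in arterial-type and 264 CPM in remaining cells. The stricter ratios were 0.53 (0.35 to 0.80) for flt4, 0.41 (0.22 to 0.73) for dab2 and 0.76 (0.57 to 1.02) for mrc1a. mrc1a, a mannose receptor gene of veins and lymphatic vessels, was seen together with cldn5b in 60 of 141 members, and flt4 together with hey2 in 38. Because the rule used these genes, these shares and levels describe the choice. Among all 290 endothelial cells, 166 had at least 3 arterial UMIs and 25 of these failed the margin over the venous genes. At the mirror image of the rule, with venous UMIs in excess of arterial ones, 8 heterozygous cells were found.

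**Figure D1:**
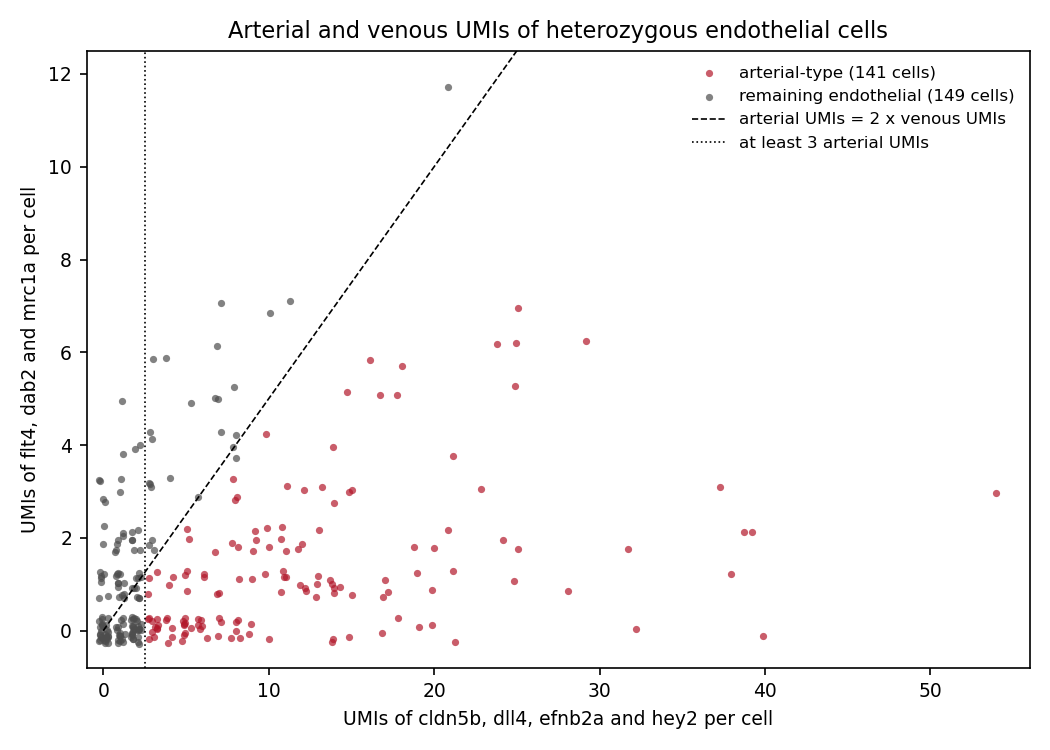
UMIs of the 4 arterial genes (x axis) against UMIs of the 3 venous genes (y axis) in each heterozygous endothelial cell, moved at random by less than 0.5 so that points do not cover each other. The 141 arterial-type cells lie right of the dotted line and below the dashed line, and 25 remaining cells lie right of the dotted line but on or above the dashed one.

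To ask how far free RNA and depth set such shares, the thinned cells were used again, with the neural-type cells as background. A UMI from any arterial gene together with a UMI from any venous gene was then found in 37.1% of 229 endothelial cells (30.8 to 43.7; 53.1% of 290 unthinned cells), and in 0 of 57 neural-type cells, which allows a share of up to 6.27%. For mrc1a the thinned share was 34.2% in arterial-type cells, 26.1% in remaining endothelial cells and 0% in neural-type cells, and for flt4 it was 17.5%, 16.5% and 0%. In the remaining cells of the stricter comparison the thinned share was 42.9% for mrc1a and 30.4% for flt4. The rule used these venous genes, and neural-type cells were chosen to have few endothelial genes, so the shares describe the choice. Neural-type cells had a median of 9924 UMIs before thinning, against 8738 UMIs in arterial-type cells.

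Genes that did not choose the cells were then compared between the 141 members and the 149 remaining endothelial cells of the heterozygous library. Of 3738 genes with at least 50 counts that the rule did not use, 370 (9.9%) were at least 2-fold higher in arterial-type cells and 271 (7.25%) were at most 0.5 times as high. In the stricter comparison 157 of 2692 genes (5.83%) were higher and 29 (1.08%) lower. These shares over all genes are the background for each count of list genes below. Of the 370 genes, 316 had enough counts there and 131 were called again, which is 41.5% of them and 83.4% of the 157. Of the 271 genes, 99 had enough counts and 20 were called again. The median ratio of all genes was 1.03 over all endothelial cells and 1.06 over the stricter ones.

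Arterial genes outside the rule were mostly higher in the members. A list of 24 such genes had 9 with at least 50 counts. Of these, 8 were at least 2-fold higher and none lower, with a median ratio of 5.83, and in the stricter comparison 7 were higher, with a median of 3.69. The list was compiled with earlier results of these data known.

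The chemokine receptor gene cxcr4a (ENSDARG00000057633), expressed in the forming aorta, had 0 to 13 UMIs per cell in members and 0 to 11 in remaining cells. It was present in 69 members and 11 remaining cells, at 221 CPM in members and 22.3 CPM in remaining cells, a ratio of 9.91 (6.99 to 14.4) and of 5.06 (3.46 to 7.65) in the stricter comparison. Without the tal1 limit its ratio was 2.98 (2.49 to 3.59). flt1 (ENSDARG00000019371), a receptor that sequesters Vegf, had at most 7 UMIs in a member and 3 in a remaining cell. Its level was 101 CPM in members and 12.995 CPM in remaining cells, with ratios of 7.77 (4.87 to 12.98) and 3.89 (2.36 to 6.79). The Notch ligand gene dlc (ENSDARG00000002336) was found in 60 members and 14 remaining cells, at 94.6 CPM in members and 12.4 CPM in remaining cells, with ratios of 7.65 (4.74 to 12.97) and 3.96 (2.37 to 7.02). In each of these genes cells of both groups were at 0, so the groups overlapped per cell while their sums differed beyond counting error.

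Other members of the list behaved in the same direction. esm1, a secreted proteoglycan gene of Vegf-stimulated endothelium, was 5.83-fold higher (4.40 to 7.82; stricter, 3.32; without the tal1 limit, 2.51). calcrla, a calcitonin receptor-like gene needed for arterial differentiation in zebrafish, was 7.42-fold higher (3.88 to 15.6; stricter, 4.84). The water channel gene aqp1a.1 was 3.97-fold higher (2.80 to 5.74; stricter, 3.69), and ldb2a was 3.71-fold higher (2.80 to 4.97; stricter, 2.49). acvrl1, the BMP receptor Alk1 gene, stood at 2.37-fold (1.48 to 3.87) and in the stricter comparison at 1.99-fold (1.105 to 3.81), just below the limit, and at 1.57-fold without the tal1 limit. aqp8a.1 was the exception, with 64 counts in members and 78 in remaining cells and a ratio of 1.05 (0.74 to 1.47).

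**Figure D2:**
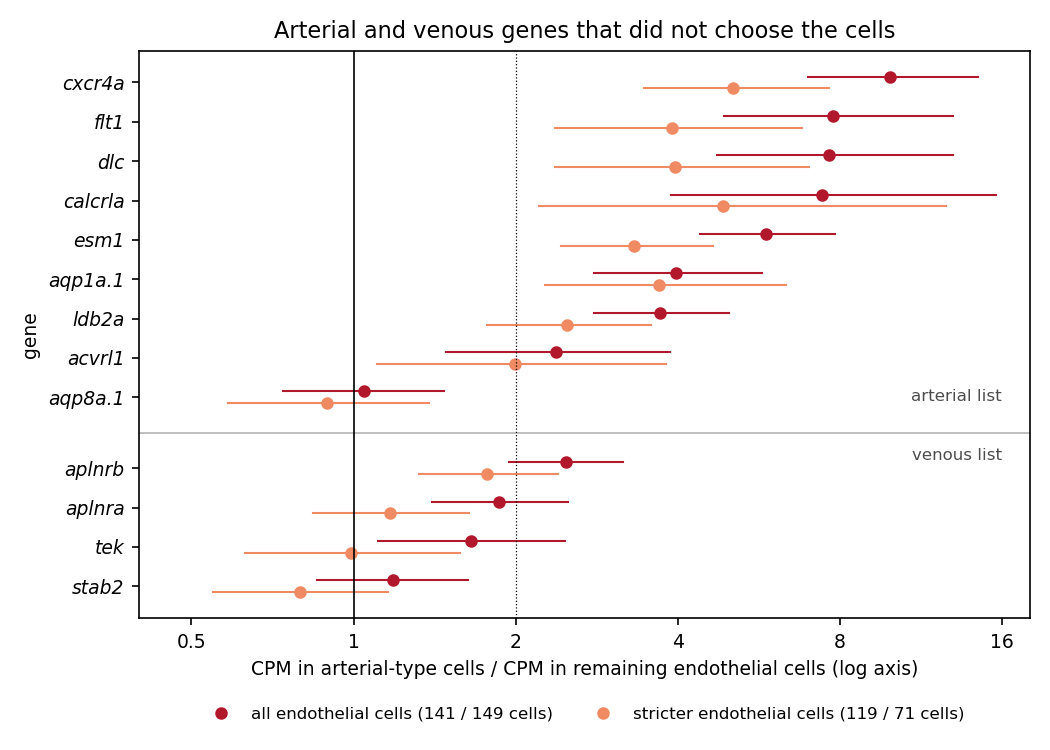
Ratio of summed CPM in arterial-type over remaining endothelial cells (x axis, log scale) for the arterial and venous list genes with at least 50 counts, with exact 95% intervals of the counts. Points for cxcr4a, flt1, dlc, calcrla and esm1 lie above 3 in both comparisons, while stab2, tek, aplnra and aplnrb lie between 0.80 and 2.47, and the dotted line marks 2.

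No venous list gene outside the rule with enough counts was called lower in the members. Of 4 list genes with at least 50 counts, 1 was at least 2-fold higher, 0 were lower, and the median ratio was 1.76, against 1.08 with 0 called in the stricter comparison. Over all genes 7.25% were lower, and 1.08% in the stricter comparison, so 0 of 4 was near those shares. stab2, a scavenger receptor gene of veins, had 77 counts in members and 83 in remaining cells, a ratio of 1.18 (0.86 to 1.63) and of 0.80 (0.55 to 1.16) in the stricter comparison. The apelin receptor gene aplnrb was at 158 CPM in members and 63.7 CPM in remaining cells, with ratios of 2.47 (1.94 to 3.17) and 1.77 (1.32 to 2.40), and of 1.47 without the tal1 limit. Its paralog aplnra had ratios of 1.87 (1.40 to 2.501) and 1.17 (0.84 to 1.64), and tek, a Tie receptor gene, 1.65 (1.11 to 2.47) and 0.99 (0.63 to 1.58). The genes ephb4a, with 9 counts in members, and nr2f2, with 12, were too sparse to compare.

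Against the 8 venous-type cells the counts were few. dlc stood at 94.6 CPM in arterial-type cells and 16.2 CPM in venous-type cells, the level of 1 count there, a ratio of 5.84 (1.03 to 233). cxcr4a stood at 221 CPM in arterial-type and 178 CPM in venous-type cells, a ratio of 1.24 (0.68 to 2.51). The progenitor gene lmo2 was lower in arterial-type cells, at 1776 CPM against 4847 CPM in venous-type cells, a ratio of 0.366 (0.325 to 0.415). Of the venous list, stab2 stood at 60.7 CPM in arterial-type and 113 CPM in venous-type cells, a ratio of 0.535 (0.248 to 1.38). aplnrb stood at 158 CPM in arterial-type and 32.4 CPM in venous-type cells, from 2 counts there, a ratio of 4.87 (1.33 to 40.5). At this depth a difference in cxcr4a or stab2 was not detectable, and that in lmo2 was beyond counting error of 8 cells from 1 library.

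**Figure D3:**
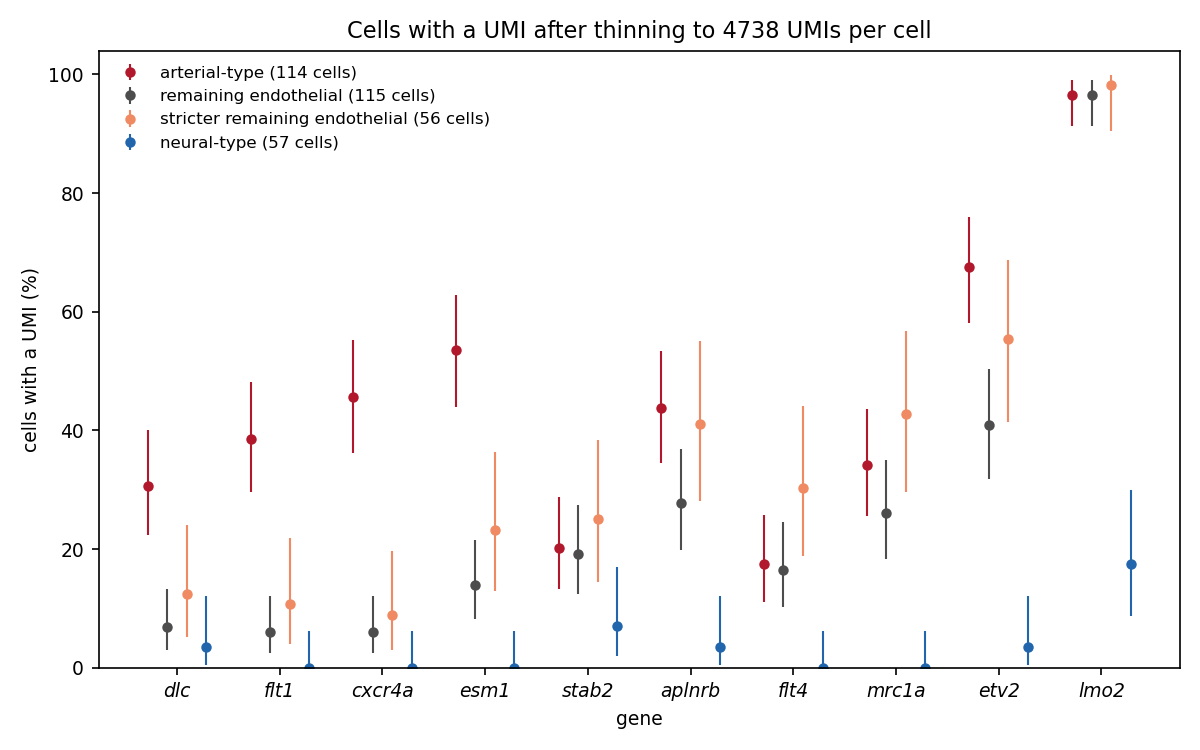
Share of cells with at least 1 UMI (y axis, %) after thinning to 4738 UMIs, with exact 95% intervals, for genes along the x axis. dlc, flt1, cxcr4a and esm1 were seen in 30.7% to 53.5% of arterial-type cells and in 6.09% to 13.9% of remaining endothelial cells. Shares for stab2 and flt4 differed by about 1 percentage point between these groups. In the remaining cells of the stricter comparison flt4 was seen in 30.4%, against 17.5% of arterial-type cells. There stab2 was seen in 25%, against 20.2% of arterial-type cells, and dlc, flt1, cxcr4a and esm1 in 8.93% to 23.2%.

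Notch pathway genes were followed from ligands to targets. In this pathway Delta and Jagged ligands on one cell bind and activate Notch receptors on its neighbor, and hairy/E(spl)-related repressors are the direct targets. Both ligand genes with at least 50 counts, dlc and dla, were higher in members over all endothelial cells, while in the stricter comparison dlc passed 2-fold and dla stood at 1.95 (1.17 to 3.40), and at 1.75 without the tal1 limit. dlc was detected in 34 of the 45 members with dll4, and 3 of the 5 remaining cells with dll4 held it. The receptor gene notch1a had a ratio of 1.39 (0.95 to 2.03), and 0.93 (0.60 to 1.44) in the stricter comparison. notch1b had 19 counts in members and 16 in remaining cells, and notch3 had 13 in members and 10 in remaining cells.

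Of 9 Notch targets and modifiers, 4 were at least 2-fold higher and 0 lower, where 9.9% of all genes were higher. In the stricter comparison 3 of 7 were higher, where 5.83% of all genes were, and these were her12, her15.1 and her9. The paper lists her12 and her15.1 among the top markers of its neural cells. her12 stood at 133 CPM in members and 26.0 CPM in remaining cells, a ratio of 5.13 (3.64 to 7.37; stricter, 3.88), but its 169 counts in members came from 31 cells, 1 of which held 32. her15.1, which has a near-identical copy of the same name and is therefore uncertain, had a ratio of 3.14 (2.14 to 4.68; stricter, 3.25), with 20 cells of each group holding it. lfng, a glycosyltransferase gene that tunes Notch receptors, was 2.60-fold higher (1.94 to 3.52; stricter, 1.75), and dtx2, a Deltex ubiquitin ligase gene, 5.10-fold (2.51 to 11.4; stricter, 2.43). Without the tal1 limit lfng stood at 1.35 (1.13 to 1.61) and dtx2 at 1.38 (0.942 to 2.03). her9, a further gene of this family, had a ratio of 1.96 (1.29 to 3.01; stricter, 4.76; without the tal1 limit, 1.75). hey1, close kin of hey2, had 23 counts in 18 members and 4 counts in 4 remaining cells. The neural list, which shares dla with the ligands, also had more counts in members, at 115 CPM against 37.7 CPM in remaining cells and at 128 CPM against 66.8 CPM in the stricter comparison. 6 of its 9 genes had a UMI in members and 3 were at 0, its highest value in a member was 1489 CPM, and its part in the levels of dla and the her genes was not tested.

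Vegf pathway genes differed in size. Of 3 such genes with enough counts 2 were higher in both comparisons, flt1 and nrp1b. nrp1b, a neuropilin co-receptor gene, had a ratio of 3.94 (2.41 to 6.69; stricter, 2.26), and plcg1, a phospholipase gene that relays Vegf signals in arterial cells, 1.83 (1.28 to 2.63; stricter, 1.46). The Eph receptor gene epha2a had a ratio of 3.02 (1.73 to 5.46; stricter, 1.85). smo, the Hedgehog signal transducer gene, stood at 1.64 (1.21 to 2.25; stricter, 1.22). In the chemokine list cxcr4a was higher, cxcl12b had a ratio of 1.19 (0.96 to 1.49; stricter, 0.81), and the ligand gene cxcl12a was lower at 0.49 (0.26 to 0.88; stricter, 0.26), with 17 counts in members and 44 in remaining cells.

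Targets of growth factor signals were higher as well. Of 7 genes of MAPK and Sprouty feedback 6 were at least 2-fold higher, and 3 of 6 in the stricter comparison. Over all genes 9.9% were higher, and 5.83% in the stricter comparison. dusp5, a phosphatase gene of endothelial cells that acts on Erk, had 1345 CPM in members and 447 CPM in remaining cells, a ratio of 3.01 (2.75 to 3.28; stricter, 1.75). plk2b had a ratio of 4.32 (3.38 to 5.57; stricter, 2.67) and spry2, an inhibitor of receptor tyrosine kinase signals, 3.39 (2.23 to 5.26; stricter, 2.66; without the tal1 limit, 1.82). The phosphatase gene dusp1 stood at 3.24 (1.99 to 5.43; stricter, 2.43; without the tal1 limit, 1.91), and dusp6 and spry4 stood at 2.17 and 2.74 (stricter, 1.49 and 1.82). Of 6 BMP response genes 5 were higher, against 2 of 5 in the stricter comparison. id3, an Id repressor gene, was at 246 CPM in members and 38.4 CPM in remaining cells, with a ratio of 6.41 (4.87 to 8.57) and of 6.56 (4.39 to 10.2) in the stricter comparison, but of 2.06 (1.77 to 2.39) without the tal1 limit. id1 was at 3081 CPM in members and 1183 CPM in remaining cells, with ratios of 2.61 (2.47 to 2.75) and 1.93 (1.80 to 2.07), and id2a had 2.47 (1.998 to 3.07; stricter, 2.26). Without the tal1 limit id1 stood at 1.75 and id2a at 1.73.

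Transcription factors of the endothelial program were divided. etv2 stood at 370 CPM in members and 149 CPM in remaining cells, a ratio of 2.49 (2.13 to 2.92), and at a ratio of 1.38 (1.15 to 1.66) in the stricter comparison. Without the tal1 limit its ratio was 1.13 (1.05 to 1.22), and that of tmem88a, a gene of the hemangioblast lineage, was 1.04 (0.968 to 1.11) instead of 2.17 (1.89 to 2.51). etv2 was the 1 gene of 8 in the ETS list at 2-fold or more, and 0 of 6 were so in the stricter comparison. Over all genes 9.9% were at 2-fold or more, and 5.83% in the stricter comparison. fli1a, a further ETS gene, had ratios of 1.74 (1.54 to 1.96) and 1.17 (1.01 to 1.35). lmo2, the LIM partner of Tal1, was level at 1.06 (0.998 to 1.12) and stood at 0.63 (0.59 to 0.67) in the stricter comparison. In the list of SoxF, Forkhead and Klf factors 7 of 8 were higher, against 2 of 8 in the stricter comparison. sox7, a SoxF gene of vascular development, had 755 CPM in members and 238 CPM in remaining cells, a ratio of 3.17 (2.81 to 3.58; stricter, 1.83; without the tal1 limit, 1.70). mef2ca, a MADS-box factor gene, had 3.34 (2.15 to 5.32; stricter, 2.03), and klf6a, mef2cb, nova2 and foxc1a had 2.29 to 3.07, and 1.19 to 1.75 in the stricter comparison. gbx2, a homeobox gene, kept a ratio above 2 in both comparisons, at 5.40 (3.91 to 7.58) and 3.75 (2.52 to 5.74), and stood at 1.92 without the tal1 limit.

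Junction, matrix and cytoskeletal genes followed. Of 17 junction and surface genes 7 were higher and 0 lower, where 9.9% of all genes were higher. In the stricter comparison 1 of 16 was higher, near the share of 5.83% over all genes. That gene was podxl, which codes for a sialomucin of the apical surface, at 169 CPM in members and 32.8 CPM in remaining cells, with ratios of 5.15 (3.79 to 7.09) and 3.75 (2.58 to 5.63). tjp1b, with 45 counts in members and 17 in remaining cells, passed 2-fold over all endothelial cells, at 3.37 (1.67 without the tal1 limit). The others were rasip1, a regulator gene of vascular lumens, clec14a, myct1a, esama and egfl7, at 2.07 to 2.92, and at 1.29 to 1.76 in the stricter comparison. Of 14 matrix genes 8 were higher and 2 lower, against 5 higher and 2 lower in the stricter comparison. spock3, a testican gene, had a ratio of 6.75 (3.99 to 12.09; stricter, 4.21), the collagen IV gene col4a1 5.39 (2.91 to 10.8; stricter, 2.82) and emilin2a 3.64 (2.46 to 5.52; stricter, 2.76). The nidogen gene nid2a stood at 2.80 (2.12 to 3.71; stricter, 2.37) and sparc, which codes for a collagen-binding protein, at 2.82 (2.25 to 3.56; stricter, 2.02). Without the tal1 limit nid2a stood at 1.80 and sparc at 1.99. serpinh1b, a collagen chaperone gene, stood at 3.39 (stricter, 1.95; without the tal1 limit, 1.71), and mmp14b and mfap2 at 2.57 and 2.07. The lower genes were fn1b, a fibronectin gene, at 0.47 (0.35 to 0.63; stricter, 0.50), and the collagen XVIII gene col18a1a at 0.47 (0.26 to 0.80; stricter, 0.32).

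All 26 actin and motility genes had a ratio above 1, 15 of them at 2-fold or more, where 9.9% of all genes were. In the stricter comparison 1 of 26 was at 2-fold, no larger a share than the 5.83% over all genes. That gene was the calponin gene cnn2, with ratios of 3.25 (2.75 to 3.87) and 2.03 (1.66 to 2.499). tmsb4x, which codes for an actin-binding thymosin, stood at 9252 CPM in members and 3959 CPM in remaining cells, with ratios of 2.34 (2.27 to 2.41) and 1.81 (1.74 to 1.88). fscn1a, which codes for the actin bundler fascin, had the second highest ratio of the list at 2.98 (2.56 to 3.48; stricter, 1.74). The other 12 called genes were tpm4a, tagln2, msna, actb1, actb2, cnn3a, pfn1, arpc3, cdc42l, rhoca, marcksl1a and marcksl1b, at 2.01 to 2.67, and at 1.31 to 1.75 in the stricter comparison.

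Few cell cycle genes passed the limits. Of all genes 9.9% were higher and 7.25% lower, and in the stricter comparison 5.83% higher and 1.08% lower. Of 12 replication genes 0 were called over all endothelial cells, and 1 of 8 was higher in the stricter comparison. Their median ratio was 0.983 over all endothelial cells, with 5 of 12 genes above 1, and 1.60 with 7 of 8 above 1 in the stricter comparison, so its direction depended on the comparison cells. Per cell the replication list had a median of 578 CPM in members and 648 CPM in remaining cells, and of 579 CPM in arterial-type and 299 CPM in remaining stricter cells. The called gene was mcm5, of the replicative helicase, at 2.51 (1.28 to 5.35). Of 11 mitosis genes 1 was lower, mki67 at 0.46 (0.34 to 0.61), and it stood at 0.93 (0.60 to 1.44) in the stricter comparison. Immediate early genes, which dissociation of tissue is known to induce, had a median per cell of 1606 CPM in members and 877 CPM in remaining cells, and of 1676 CPM in arterial-type and 810 CPM in remaining stricter cells. All 8 genes compared had a ratio above 1, with a median of 1.68 (1.64 in the stricter comparison), and 2 were called, egr1 at 2.55 (1.77 to 3.71; stricter, 2.4998) and ier2a at 2.17. The part of this difference in the other ratios was not tested.

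**Figure D4:**
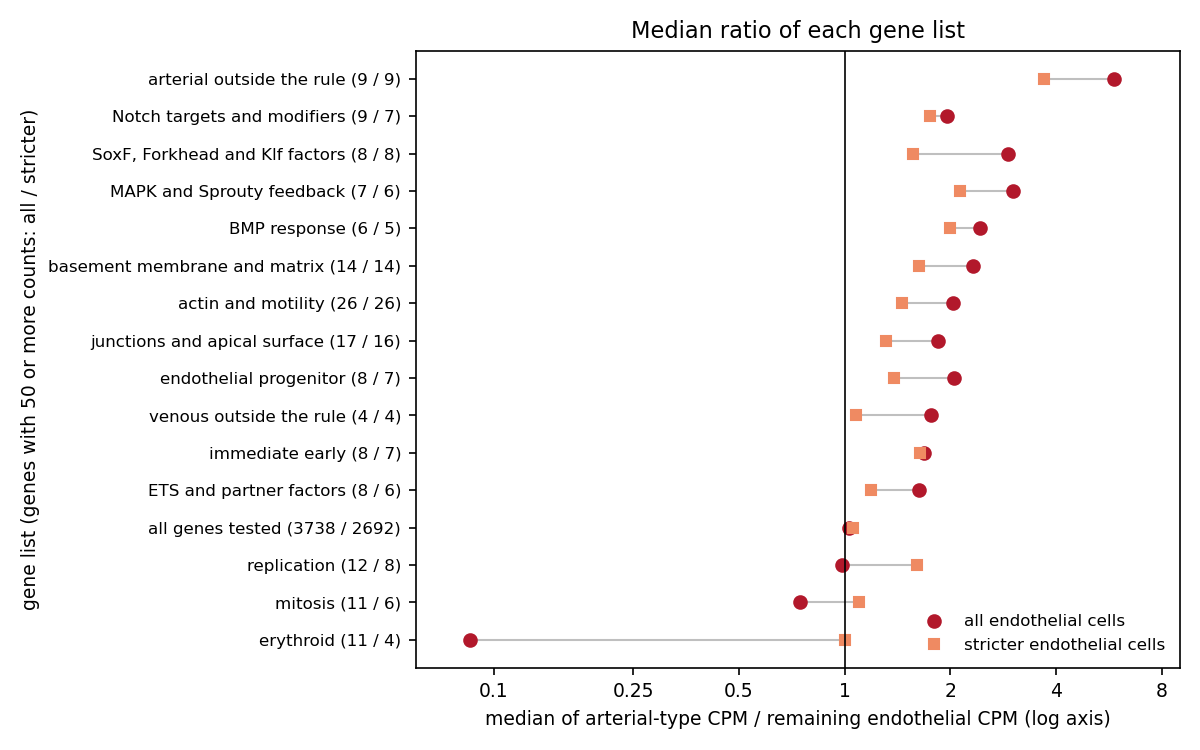
Median ratio of summed CPM in arterial-type over remaining endothelial cells (x axis, log scale) for gene lists (y axis), with the number of genes compared in brackets. The arterial list stands highest in both comparisons at 5.83 and 3.69, the median of all genes is 1.03 and 1.06, and the erythroid list is at 0.0857 over all endothelial cells and near 1 over the stricter ones.

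The gene sets that the study drew from another reporter line, sequenced on the Fluidigm C1 platform, gave a further view. Of 14 genes of its arterial set with at least 50 counts, 13 were at least 2-fold higher in members and 0 lower, with a median ratio of 3.69, against 9 of 14 with a median of 2.30 in the stricter comparison. Over all genes 9.9% were higher, and 5.83% in the stricter comparison. si:ch211-156j16.1 had 752 CPM in members and 179 CPM in remaining cells, a ratio of 4.19 (3.67 to 4.79; stricter, 2.49). sox13, a SoxD factor gene, had a ratio of 4.48 (3.06 to 6.72; stricter, 2.504), elovl1a, a fatty acid elongase gene, 3.74 (2.65 to 5.37; stricter, 2.72), and lnx2b 3.74 (2.43 to 5.91; stricter, 2.02). abhd17b had 3.14 (1.998 to 5.06; stricter, 2.11), while rasgrp3, afap1l1b, pdzrn3b and tsku, at 2.24 to 3.36, stood at 1.22 to 1.75 in the stricter comparison. Of 4 genes of the venous set with enough counts 1 was higher and 0 lower. That was dysf, which codes for dysferlin, at 3.26 (2.03 to 5.41; stricter, 2.16), while the angiotensin receptor gene agtr2 stood at 1.83 (1.42 to 2.36; stricter, 0.91). Of 12 genes of its set EC2, a group of endothelial cells, 6 were higher, with clul1 at 7.22 (3.88 to 14.7; stricter, 3.56) and zgc:112332 at 5.52 (3.41 to 9.35; stricter, 3.04). adra1d and si:dkeyp-94b4.1 stood at 3.58 and 2.33, and the other two were ldb2a and col4a1.

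Among all genes, the 12 with the highest ratios held cxcr4a, flt1, dlc, calcrla and clul1 from the lists. csrp2, a LIM protein gene, had 93 counts in 52 members and 12 counts in 8 remaining cells, with ratios of 9.88 (5.39 to 19.8) and 10.2 (4.22 to 32.3). capgb, an actin-capping gene, had 150 counts in 54 members and 27 counts in 17 remaining cells, with ratios of 7.08 (4.68 to 11.1) and 4.11 (2.54 to 7.04). The actin gene acta1a had a ratio of 7.65 (3.74 to 17.6; stricter, 4.19). icn, with a ratio of 15.6 (8.47 to 32.1), and s100a10b, a partner gene of annexin, with 8.69 (4.59 to 18.1), were concentrated in 23 and 22 members, and icn had 102 counts in members and 0 in remaining cells of the stricter comparison. The paper lists both genes among its top epidermal markers. icn stood at 106 CPM in members and 6.81 CPM in remaining cells, and s100a10b at 59.2 CPM in members and 6.81 CPM in remaining cells. For ctslb and zgc:174855 a lone member held 51 of 87 and 63 of 138 counts.

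The 12 lowest ratios belonged mainly to blood genes. They were hbz, hbbe1.3, hbae1.3, hbbe1.2, hbbe3, hbae3 and hbbe1.1, which are globin genes of near-identical copies and uncertain as single genes, with rfesd, cahz, alas2, spi1b and myb, at ratios of 0.0283 to 0.0857. In the stricter comparison hbbe1.1 stood at 1.02 and hbae3 at 1.096, while hbbe1.3 at 0.503 (0.266 to 0.943) and hbbe1.2 at 0.395 (0.166 to 0.906) were still below 1 beyond counting error, and hbz at 0.575 (0.107 to 3.09) had 4 counts in each group. Of the 11 erythroid genes compared, 11 were lower over all endothelial cells, and 0 of 4 in the stricter comparison. The macrophage gene cebpa stood at 0.16 (0.11 to 0.21; stricter, 0.32). Among the genes lowest in the stricter comparison, cldng, a claudin gene, had 71 counts in members and 407 in remaining cells, with ratios of 0.22 (0.17 to 0.29) and 0.24 (0.17 to 0.34), and si:ch211-11n16.3 had ratios of 0.13 (0.10 to 0.16) and 0.12 (0.08 to 0.18). hoxb7a, a Hox gene of the tailbud list, stood at 0.51 (0.37 to 0.69) and 0.32 (0.23 to 0.45). These last genes were taken from a ranking that was made after the values were seen.

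Within the 141 members, cells were ordered by the CPM of the 4 arterial genes and divided into 3 groups of 47, whose median depths were 10086, 8908 and 8374 UMIs from the lowest to the highest level. The arterial genes dlc, flt1, esm1 and cxcr4a, outside the rule, followed that order, which rests on the values that chose the members. dlc had 26.4 CPM (14.08 to 45.2) in the lowest, 118 CPM (86.4 to 156) in the middle and 159 CPM (122 to 205) in the highest group. flt1 had 52.9, 110 and 154 CPM, esm1 93.6, 215 and 390 CPM, and cxcr4a 95.6, 190 and 417 CPM. Endothelial genes that the rule used did likewise, with cdh5 at 201, 345 and 446 CPM and kdrl at 108, 258 and 279 CPM. The rise was therefore not particular to arterial genes. her12 had 18.3, 65.04 and 356 CPM, with the concentration in few cells given above.

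Progenitor genes did not share 1 course over the same cells. From the lowest to the highest group, sox7 of the progenitor list rose with the arterial genes, at 631, 733 and 940 CPM. egfl7 of that list had 539, 978 and 1020 CPM. Others took other courses. lmo2 had 2512 CPM (2374 to 2656) in the lowest, 1631 CPM (1508 to 1761) in the middle and 969 CPM (872 to 1074) in the highest group. tmem88a had 478, 420 and 361 CPM, with neighboring intervals that overlap. etv2 had 386 CPM (333 to 445), 350 CPM (295 to 413) and 369 CPM (310 to 436), values that differ by less than their counting error. The venous gene stab2 had 61.0, 70.0 and 50.5 CPM, with intervals that overlap. Other venous genes took several courses. mrc1a had 48.8 CPM (31.3 to 72.6), 110 CPM and 127 CPM (93.99 to 169). dab2 had 4.07, 32.5 and 23.9 CPM, flt4 34.6, 50.03 and 42.5 CPM, and aplnrb 118, 203 and 162 CPM. aplnra was level at 91.5, 97.6 and 95.6 CPM. The rule used mrc1a, dab2 and flt4, so their levels depend in part on the choice. pcna, a replication clamp gene, had 205 and 245 CPM in the lowest and middle groups and 518 CPM in the highest, whereas mki67 had 44.7, 52.5 and 50.5 CPM. No pattern across the groups was tested, because cells of 1 library are not replicates.

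**Figure D5:**
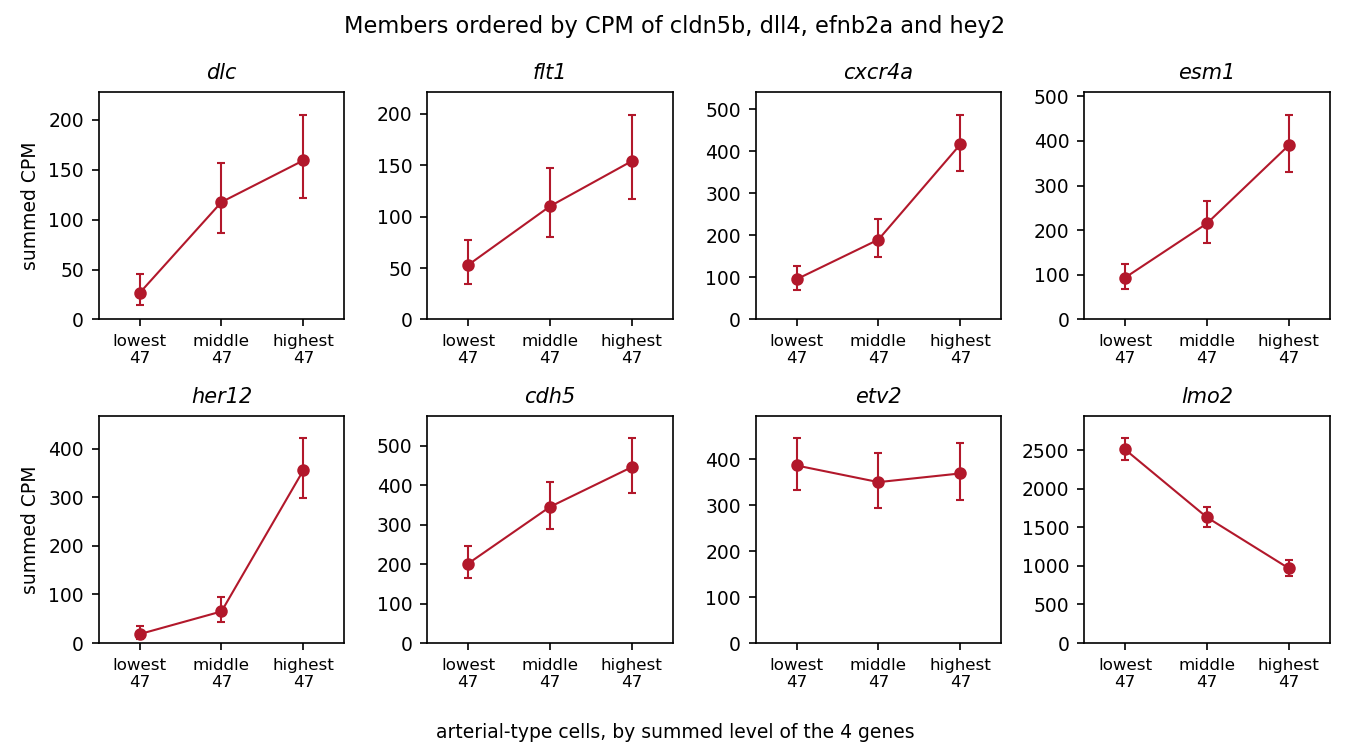
Summed CPM (y axis, from 0) with exact 95% Poisson intervals in 3 groups of 47 arterial-type cells ordered by their CPM of the 4 arterial genes (x axis). dlc, flt1, cxcr4a and esm1 are lowest in the first and highest in the last group, etv2 lies between 350 and 386 CPM in all, and lmo2 is 2512 CPM in the first and 969 CPM in the last.

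The 25 cells that had at least 3 arterial UMIs without the margin over venous ones lay between the groups in several arterial genes. dlc stood there at 51.0 CPM (27.2 to 87.2), flt1 at 43.2 CPM (21.5 to 77.2), cxcr4a at 70.6 CPM (41.9 to 112) and esm1 at 90.3 CPM (57.2 to 135). These values overlap those of the lowest-level 47 members. Their cdh5 level of 373 CPM (302 to 456) was near that of the middle group, and their lmo2 level of 2233 CPM (2053 to 2424) near that of the lowest. In the 41 remaining cells with no arterial UMI, dlc had 2 counts, flt1 2, cxcr4a 1 and esm1 7. Some of these 41 cells were high in the erythroid list, with up to 99651 CPM in a cell, and they were not left out here.

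Endocardial cells, which line the heart and were left out by the rule, also held several arterial genes. Against these 75 cells 152 of 3027 genes (5.02%) were at least 2-fold higher in arterial-type cells and 87 (2.87%) lower. dlc was higher in arterial-type cells, at 94.6 CPM against 27.5 CPM in endocardial cells, a ratio of 3.44 (2.13 to 5.84), and so was cxcr4a at 3.57 (2.60 to 5.01). esm1, with a ratio of 1.097 (0.895 to 1.35), spock3, with 0.82 (0.59 to 1.15), and calcrla, with 0.71 (0.48 to 1.04), had intervals that include 1. id1 and id3 were lower in arterial-type cells at 0.58 (0.56 to 0.61) and 0.53 (0.45 to 0.62), as were icn at 0.57 (0.45 to 0.73) and gbx2 at 0.77 (0.62 to 0.95). capgb at 5.74 (3.37 to 10.5), csrp2 at 4.11 (2.29 to 8.002) and her12 at 6.47 (3.81 to 11.8) were higher in arterial-type than in endocardial cells. Of the rule genes, cldn5b was also seen in 69.3% of endocardial cells and dll4 in 24.0%.

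In the homozygous library 1 cell met the rule. It held 12812 UMIs, of which 2 were cldn5b, 1 efnb2a and 1 hey2, with 0 of dll4 and 0 of the 3 venous genes. It also held 3 UMIs of ecscr and of esm1, and 1 each of cdh5, erg, kdrl, she and etv2, and 0 of dlc, flt1 and cxcr4a. It and 1 further cell were the endothelial cells of that library, a share of 0.423% (0.0512 to 1.52) against 22.7% (20.7 to 24.8) of heterozygous kept cells. Cells that met the endothelial rule were thus a minority of the kept cells in both libraries. That rule also leaves out cells with more tal1. Without endocardial cells, 290 heterozygous cells were endothelial under it, and 434 where no limit was set on tal1. The shares therefore depend on the rule and do not describe all that was sorted. These are shares of the kept cells, and the number of cells per embryo was not analysed here.

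Summed over all kept cells, the arterial genes differed in what was left in the homozygous library. cldn5b had 13 counts in the homozygous and 1505 counts in the heterozygous library, a homozygous over heterozygous ratio of CPM of 0.0233 (0.0124 to 0.0399). dll4 had 2 homozygous and 126 heterozygous counts and a ratio of 0.0428 (0.00512 to 0.158), and flt1 had 2 homozygous and 253 heterozygous counts and a ratio of 0.0213 (0.00257 to 0.0777). hey2 had 136 homozygous and 1440 heterozygous counts with a ratio of 0.254 (0.212 to 0.304), and efnb2a had 173 homozygous and 578 heterozygous counts with a ratio of 0.806 (0.677 to 0.957). hey2 was found in 12.9% of homozygous kept cells and efnb2a in 17.3%, although 1 arterial-type cell was among them. Both genes were also found outside the members in the heterozygous library. Of its kept cells that were not members, 24.7% held hey2 and 15.5% efnb2a, at 51.5 and 24.6 CPM. Over all homozygous kept cells these genes were at 21.7 and 27.6 CPM. Among heterozygous neural-type cells 12.12% held hey2 and 22.7% efnb2a. Of further arterial genes outside the rule, dlc had a ratio of 0.369 (0.243 to 0.542). cxcr4a had 0.158 (0.117 to 0.211) and esm1 0.2395 (0.191 to 0.297).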

How the data were processed

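Droplet libraries (Chromium) of sorted GFP-positive cells at the 20-somite stage were analysed, 1 homozygous and 1 heterozygous for etv2ci32Gt. The authors aligned reads to zebrafish assembly zv10 and made UMI counts per gene and barcode with Cell Ranger (version 2.0.2 in the submitters' processing notes), and the deposited counts are unfiltered and not normalized. The gene annotation is not given in the sources used here. Reads were not reprocessed.

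Counts were summed over cells and given per 1000000 UMIs. Ratios of summed CPM carry exact 95% intervals conditional on the total of the 2 counts, which assume counting error only. A gene was called at 2-fold or at 0.5 among genes with at least 50 counts that the rule did not use. Members, lists and tests were chosen with earlier results of these data known. Genes to be named were those of the rule, list genes with at least 50 counts and a ratio of at least 1.5 or at most 0.67, and the 12 highest and 12 lowest ratios. Many list genes short of 2-fold and some erythroid, tailbud, neural and endocardial ones met this and are given by their counts only, so the rule was not followed in full, and genes that were sparse or level are also named. Depth was 2558 to 25488 UMIs per member. Empty droplets (up to 100 UMIs) held 3.70% of UMIs in the estimate that was subtracted as an alternative. Scrublet marked 5 of 1608 heterozygous cells, which is too few to have worked, and 0 of the members, so doublets were kept and leaving out the deepest 5% of cells is an alternative. Neural-type cells had at least 2 of sox2, sox3, sox19a and elavl3 and fewer than 3 endothelial genes. Thinning used a fixed seed. Ratio code was tested on simulated data. Python 3.11.15, numpy 2.4.6, scipy 1.17.1, scanpy 1.11.5 and matplotlib 3.10.9 were used. Sequences and genome positions were not used here. Results for 1 of the gene lists are not reported here.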

Additional observations from a re-analysis of the deposited data

How the results depend on the processing

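The number of members, 141 in the heterozygous library, ranged from 94 of 229 endothelial cells after thinning to 197 of 434 with no limit on tal1. Of the arterial list, 6 to 10 genes were higher in each alternative, out of 7 to 13 tested. Of the venous list, with 3 to 8 tested, 0 were lower in any. The number of all genes called depended on the comparison group and on the counts required, which also set how many genes were tested. Shares of the genes tested are given in brackets, beside 9.9% higher and 7.25% lower in the main comparison. Genes higher numbered 230 (6.15%) without cldn5b in the rule, 152 (8.10% of 1877) after thinning and 157 (5.42%) with at least 4 of 7 endothelial genes. They numbered 240 (5.59%) with endocardial cells in the comparison and 238 (6.37%) with equal weight per cell. With at least 20 and 100 counts they were 672 (11.1% of 6048) and 212 (9.16% of 2314), and 813 (21.7%) at 1.5-fold. There were 157 (5.83%) in the stricter cells and 188 (6.01%) without cells high in erythroid genes. Genes lower numbered 167 (4.47%) with at least 2 arterial UMIs, 99 (5.27%) after thinning and 45 (1.55%) with at least 4 of 7 endothelial genes. With at least 20 and 100 counts they were 562 (9.29%) and 148 (6.40%), and 605 (16.2%) at 1.5-fold. There were 29 (1.08%) in the stricter cells and 46 (1.47%) without erythroid-high cells. The last 2 alternatives were added after seeing the data. The homozygous library had 0 members at a limit of 5 arterial UMIs. The alternatives were also run on 201 genes, those of the lists reported here with at least 50 counts and the 12 highest and 12 lowest ratios. Of their 2788 values, 1939 stayed within the gene's interval. Of the 90 of these genes at 2-fold or more, 42 remained so in the stricter cells, 43 with at least 4 of 7 endothelial genes, 46 with no limit on tal1, 53 without erythroid-high cells, 54 with endocardial cells in the comparison, 64 without cldn5b in the rule and also with equal weight per cell, 69 with at least 2 arterial UMIs, 66 of 89 after thinning, and 77 to 90 in the others. With no limit on tal1, 38 of 201 ratios moved by over 1.5 times. Direction turned for bmp16 at 0.641, id2a at 0.862, dusp6 at 0.989 and wnt11r at 0.546 with endocardial cells in the comparison, for hbae3 at 1.096 and hbbe1.1 at 1.02 in the stricter cells, and for hbbe1.1 at 1.03 without erythroid-high cells. The cause was not tested. Depth limits the genes under 50 counts, and no paired analysis was possible because each genotype has 1 library.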
